A study of Mus musculus with 6 samples.

Results

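The genes described here are 37 transcripts of the integrated stress response and of mitochondrial protein quality control, measured in mouse heart ventricle after treatment with the aminoglycoside antibiotics paromomycin and neomycin. They were picked by gene symbol from a list of known ATF4 targets and mitochondrial stress genes, by a rule that uses no measured value, although the list was drawn up with earlier results of these data known. All 37 were found among the 18158 features of the deposited table, and 31 were high enough to test. The vehicle group was 3 CD1 mice, an outbred stock, aged 3 months, that received daily PBS injections for 14 days. The Paro/Neo group was 3 CD1 mice of the same age that received both antibiotics at 150 mg/kg, 2 times a day, intraperitoneally, for the same 14 days. No allele, transgene or injury is named for either group. Each library came from the ventricles of 1 mouse, and the stated purpose was to look at expression while the antibiotics suppress the homeobox factors Meis1 and Hoxb13.

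The integrated stress response begins when a kinase phosphorylates the translation initiation factor eIF2alpha, which lowers general protein synthesis and favours translation of the mRNA of ATF4, a basic leucine zipper transcription factor. ATF4 pairs with C/EBP proteins and activates genes for amino acid synthesis and import, for folate metabolism and for its own restraint. In the heart a defect of mitochondrial translation or protein folding is a known trigger, and secreted FGF21 and GDF15 then mark it in blood. Mitochondrial chaperones and proteases, which fold and degrade proteins inside the organelle, are often read beside these genes. Since ATF4 is controlled in large part through its translation, its mRNA level is not a measure of its activity, and only mRNA was measured here.

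The composite site bound by ATF4 with a C/EBP partner is shown first because it ties several of these genes together at the level of sequence. RefSeq promoter windows on GRCm38.p6, covering 250 bases before and 50 bases after an annotated start, were found for 33 members. Those without a window were Cth, Eif4ebp1, Hspa9 and Slc7a5. The motif searched was TGATGNAA on both strands. It occurred for 7 of the 33 members (21.2%), against 4.51% of 27025 genes with windows of the same length, and its form TGATGCAA for 5 of 33 (15.2%) against 1.03%. Since the members were listed as known ATF4 targets or mitochondrial stress genes, a higher share was likely from the start and tests nothing. Each match is printed below 5′ to 3′ on the strand where it reads in this direction, with the motif in capitals and 11 bases on each side.
Asns: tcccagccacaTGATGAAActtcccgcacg
Chac1: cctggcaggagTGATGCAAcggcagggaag
Fgf21: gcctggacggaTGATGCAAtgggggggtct
Nupr1: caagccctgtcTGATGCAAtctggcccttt
Pycr1: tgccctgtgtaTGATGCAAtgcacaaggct
Trib3: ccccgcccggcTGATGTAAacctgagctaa
Vldlr: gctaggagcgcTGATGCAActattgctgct

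The Asns match lies at chr6:7693225-7693232 and begins 23 bases before the start used for its window, on the strand of the gene. The Pycr1 match at chr11:120643844-120643851 is also on the strand of its gene and begins 103 bases before the start used for its window. The others lie on the strand opposite to their gene: Chac1 at chr2:119351049-119351056, Fgf21 at chr7:45615622-45615629, Nupr1 at chr7:126625573-126625580, Trib3 at chr2:152344039-152344046 and Vldlr at chr19:27216820-27216827. The Trib3 match lies 15 bases after the start used for its window. These starts can differ from the gene bounds of the GENCODE M21 annotation. By those bounds the Asns, Nupr1 and Vldlr matches lie inside their genes and the others outside. These are matches of letters, not measured binding, and the absence of a match says only that these letters are not in the window. Of the 7 genes, Fgf21 and Pycr1 were too low to test, and the other 5 did not share a direction in treated hearts: 2 lay higher and 3 lower, with log2 changes from -0.59 for Asns to 0.25 for Chac1.

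The values are in TPM, which are scaled by transcript length and to a sum of 1000000 in each library. Depth, inferred from the spacing of small TPM values, was 9556387 to 15969980 reads per library as a minimum. The ventricle label was checked against markers. The 11 cardiomyocyte genes checked summed to 169205 to 192671 TPM, the lymphocyte genes to at most 3.68 TPM and the hepatocyte genes to at most 2.30 TPM. Paro/Neo replicate 1 stood apart, at 36.3 on the first principal component against -16.3 to 3.24 for the other 5 mice. Markers of other cell types were not level between the groups. Lower sums in treated hearts, with no overlap, were found for fibroblast, endothelial and epicardial markers. The fibroblast sums were 2794 to 2927 TPM in vehicle and 2477 to 2726 TPM in Paro/Neo, with 9 of 9 genes lower. Without Paro/Neo replicate 1, 7 of 9 were lower. The endothelial sums were 4159 to 4599 and 3475 to 4051 TPM, with 7 of 8 genes lower. The 5 epicardial and mesothelial markers summed to 8.61 to 10.9 and 4.51 to 7.50 TPM, with 2 of 2 tested genes lower. Single genes made up most of the fibroblast and endothelial sums. Dcn, nearly level, had group means of 1842 and 1820 TPM, and Fabp4 had 3821 and 3383 TPM, vehicle first. The neutrophil sums were higher without overlap (7.52 to 18.1 and 23.1 to 25.0 TPM, 2 of 2 tested genes). The 8 lymphocyte genes, all too low to test, also summed higher without overlap (1.09 to 2.31 and 2.55 to 3.68 TPM). Of the macrophage markers 8 of 9 tested lay higher, but their sums overlapped (535 to 658 and 641 to 711 TPM). No marker gene was at 0 in all 6 libraries. The part of these cells in the values of the stress genes was not tested. In whole ventricle, fewer cells of a type and less RNA per cell cannot be told apart.

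No member of the list passed the test. Of the 31 tested members, 12 lay higher and 19 lay lower after Paro/Neo. The median of their log2 changes was -0.04, against -0.02 over all 12409 tested genes, of which 53.7% were lower. The test was limma on log2(TPM + 1), the scale of every log2 change given here, two-sided, with Benjamini-Hochberg adjustment over all tested genes and a threshold of 0.05. It called 0.137% of all genes and 0 of 31 members, whose smallest adjusted p was 0.299, for Asns. At an unadjusted p under 0.05 stood 2 higher members, Cth and Ppp1r15a (6.45% of 31, against 3.24% of all genes), and 1 lower member, Asns (3.23%, against 4.37%). All 3 treated mice lay above all 3 vehicle mice for 4 members (12.9%, against 6.04% of all genes) and below them for 3 (9.68%, against 8.22%). The lower shares are close to those of all genes, and the higher ones rest on 2 and 4 genes.

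**Figure D1:**
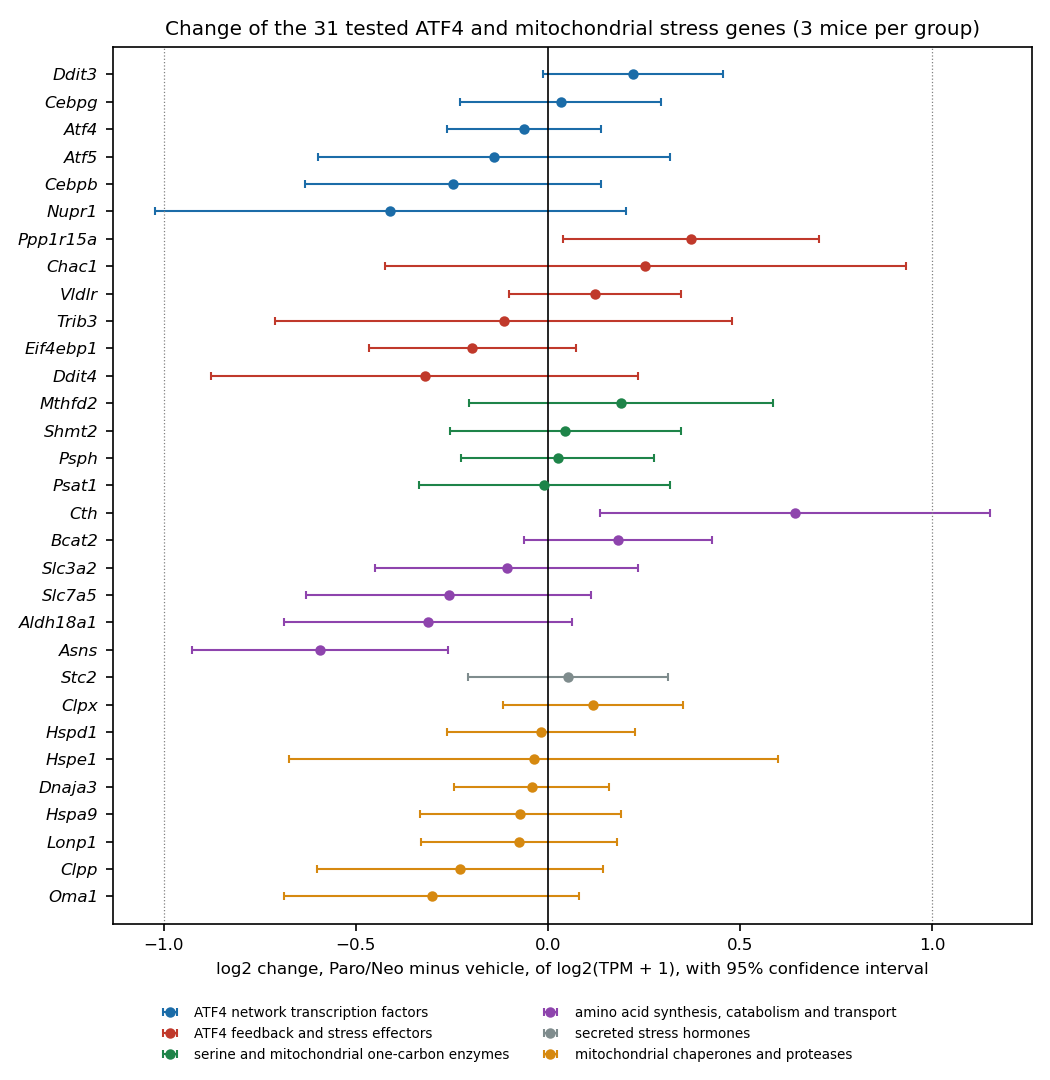
Log2 change of each tested member (Paro/Neo minus vehicle, horizontal axis, on the log2(TPM + 1) scale) with its 95% confidence interval from limma, 3 mice per group, coloured by role, with dotted lines at a 2-fold change either way. All but 3 intervals (Ppp1r15a, Cth and Asns) include 0, and all but those of Nupr1 and Cth stay inside the dotted lines.

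The precision of the comparison can be read from the intervals. For 29 of 31 members the 95% confidence interval of the log2 change, not adjusted for the number of genes, lay within a 2-fold change in either direction, as it did for 93.9% of all tested genes. For 16 members it lay within a 1.5-fold change. The exceptions to the 2-fold bound were Nupr1, with an interval of -1.02 to 0.20, and Cth, with 0.13 to 1.15. The added pseudocount of 1 shrinks the change of every gene at a few TPM. With a pseudocount of 0.1 the interval lay within a 2-fold change for 26 of 31 members and 87.5% of all tested genes, since those of Asns (-1.25 to -0.34), Chac1 (-0.68 to 1.61) and Slc7a5 (-1.21 to 0.25) then passed it too. With 3 mice a group an exact permutation test of a single gene cannot go below p = 0.10, so none is given.

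Transcription factors of the response were measured at moderate levels. Atf4 was at 90.1, 95.2 and 88.8 TPM in the vehicle mice and at 88.4, 86.2 and 87.9 TPM in the Paro/Neo mice. The treated values were all just below the vehicle ones, by less than the range among the vehicle mice (log2 change -0.06 ± 0.09 SE, 95% interval -0.26 to 0.14, limma adjusted p 0.861). The GENCODE M21 annotation of GRCm38 places Atf4 on chromosome 15, from 80255184 to 80257541.

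Ddit3, which encodes CHOP, a C/EBP-related factor induced late in the response, was at 42.3, 44.0 and 43.9 TPM in vehicle hearts and at 52.2, 46.0 and 54.6 TPM in Paro/Neo hearts. Every treated mouse was above every vehicle mouse, with replicates 1 and 3 well clear and replicate 2 close to the vehicle values. The ratio of means was 1.17 and the log2 change 0.22 ± 0.10 (SE), with a limma adjusted p of 0.67. The annotated exons of Ddit3 share 68 bases with Mars on the opposite strand, and the strand setting of the counting is not given in the sources used here.

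Atf5, a relative of ATF4 linked to the mitochondrial unfolded protein response, was at 37.2, 58.0 and 39.1 TPM against 31.9, 46.0 and 42.6 TPM, vehicle first. Its spread among vehicle mice, where replicate 2 was high, exceeded the difference between groups (adjusted p 0.864 by limma). Cebpg, a dimer partner of ATF4, was at 22.4 TPM ± 0.74 and 23.1 TPM ± 2.70 (SD, n = 3 each). Cebpb, another partner, was at 8.93, 9.03 and 8.44 TPM in vehicle and at 5.46, 7.78 and 8.95 TPM in treated mice. Only Paro/Neo replicate 1 lay far from the rest. The same mouse set the value of Nupr1, a small stress-induced chromatin protein, which was at 22.8, 18.2 and 20.5 TPM in vehicle and at 9.08, 20.5 and 18.3 TPM in Paro/Neo hearts (log2 change -0.41 ± 0.27 SE, adjusted p 0.747 by limma). Without that mouse the log2 change of Nupr1 was -0.07. The annotated exons of Cebpb share 312 bases with Tmem189 on the opposite strand.

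Genes that restrain or execute the response did not share a direction, since 3 of 6 tested members lay higher and 3 lower (median 0.004, log2). Ppp1r15a, which encodes GADD34, the phosphatase subunit that restores eIF2alpha, was at 12.5, 12.4 and 9.24 TPM in vehicle and at 15.3, 13.4 and 16.2 TPM in treated mice. The groups did not overlap, and vehicle replicate 3 was the lowest of the 6. Its ratio of means was 1.31 and its log2 change 0.37 ± 0.14 (SE), with an unadjusted p of 0.0326 and an adjusted p of 0.59 by limma. Without vehicle replicate 3 its log2 change was 0.24.

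Trib3, a pseudokinase that feeds back on ATF4, was at 2.68, 4.05 and 2.88 TPM against 1.57, 3.79 and 3.61 TPM. Paro/Neo replicate 1 was the lowest of all and the other treated mice lay inside the vehicle range. Chac1, a glutathione-degrading enzyme and ATF4 target, was at 2.02, 0.557 and 2.46 TPM in vehicle and 2.36, 2.19 and 1.57 TPM in treated mice. It rested on 6 to 30 reads per library, and vehicle replicate 2 alone was low. Without that mouse its log2 change was -0.10, against 0.25 with all 6 (adjusted p 0.837 by limma).

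Both inhibitors of mTORC1 signalling in the list overlapped between groups. Ddit4, which encodes REDD1, was at 13.3, 21.8 and 19.9 TPM against 10.4, 14.2 and 19.2 TPM. Sesn2 was below the filter on low values, at 0.604 to 1.06 TPM in vehicle and 0.559 to 0.989 TPM in treated mice, with 10 to 23 reads per library. The translation repressor Eif4ebp1 was at 85.5 TPM ± 9.90 and 74.3 TPM ± 5.35, and Vldlr, a lipoprotein receptor, at 178 TPM ± 8.83 and 195 TPM ± 14.9 (SD, n = 3 each). Neither difference passed, with adjusted p of 0.729 and 0.778 by limma.

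**Figure D2:**
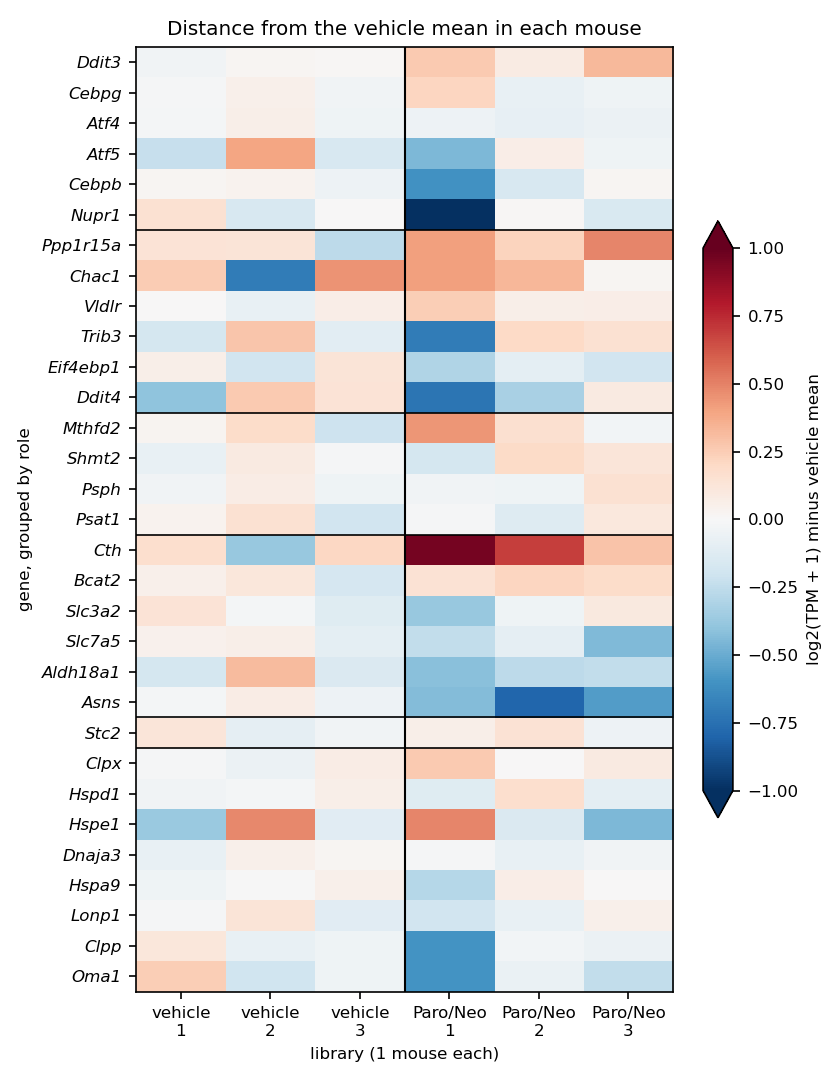
Distance of each tested member from its vehicle mean in each mouse, as log2(TPM + 1), with genes as rows grouped by role and libraries as columns, red above and blue below the vehicle mean. Paro/Neo replicate 1 carries the darkest cells, at 0.95 for Cth and -1.09 for Nupr1, while Asns is below the vehicle mean in all 3 treated mice.

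The enzymes of serine synthesis and of the mitochondrial folate cycle, which supply carbon units for purines, thymidylate and formyl-methionine, were close between groups. Of 4 tested members 3 were higher and 1 lower, and the log2 changes ran from -0.01 for Psat1 to 0.19 for Mthfd2. Psat1, the serine synthesis transaminase, was at 4.07, 4.51 and 3.35 TPM against 3.92, 3.54 and 4.34 TPM. Psph, the phosphatase of the last step, was at 14.0, 15.2 and 13.9 TPM against 14.0, 13.9 and 16.1 TPM. Its annotated exons share 452 bases with Cct6a on the opposite strand. The mitochondrial folate enzyme Mthfd2, known as a marker of mitochondrial stress, was at 3.07, 3.52 and 2.46 TPM in vehicle and 4.42, 3.46 and 2.91 TPM in treated mice. The groups overlapped, with Paro/Neo replicate 1 highest (adjusted p 0.798 by limma). The groups overlapped too for the serine hydroxymethyltransferase Shmt2, at 10.9, 12.3 and 11.4 TPM against 10.1, 13.3 and 12.6 TPM.

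The first enzyme of serine synthesis and the formate-releasing enzyme of the folate cycle were too low to test. Phgdh had 1 to 8 reads per library, at 0.078 to 0.522 TPM in vehicle and 0.264 to 0.578 TPM in treated mice. Mthfd1l had 5 to 37 reads, at 0.507, 0.539 and 0.235 TPM against 0.399, 0.690 and 1.32 TPM, with Paro/Neo replicate 3 above the other 5 mice. A fall or a small rise in Phgdh was not detectable at this depth.

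Genes of amino acid synthesis, breakdown and transport held both ends of the list. Asns, asparagine synthetase, a classic ATF4 target, was at 3.49, 3.78 and 3.38 TPM in the vehicle mice and at 2.37, 1.63 and 2.08 TPM in the Paro/Neo mice. The groups were well apart, and the treated mouse closest to the vehicle ones was replicate 1. The ratio of mean TPM was 0.571. The log2 change on the log2(TPM + 1) scale, which understates that ratio at such levels, was -0.59 ± 0.14 (SE, 95% interval -0.93 to -0.26), or -0.79 with a pseudocount of 0.1. The fit gave it an unadjusted p of 0.00335, at rank 139 of all tested genes, and an adjusted p of 0.299 by limma. The values rested on 32 to 55 reads per library in vehicle and 21 to 37 in treated mice. Asns lies on chromosome 6 at 7675169 to 7693254.

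Cth, cystathionine gamma-lyase, which makes cysteine and hydrogen sulphide, stood at the other end. It was at 4.61, 2.83 and 4.74 TPM in vehicle and at 8.65, 7.05 and 5.06 TPM in Paro/Neo hearts, on 35 to 126 reads per library. The groups did not overlap: replicate 3 of the treated mice lay just above the highest vehicle mouse and replicate 1 farthest. Its ratio of means was 1.70 and its log2 change 0.64 ± 0.22 (SE), with an unadjusted p of 0.0193 and an adjusted p of 0.521 by limma. The log2 change was 0.49 without Paro/Neo replicate 1 and 0.45 without vehicle replicate 2.

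Aldh18a1, the first enzyme of proline synthesis from glutamate, was at 4.40, 6.58 and 4.50 TPM against 3.54, 4.07 and 4.12 TPM. All treated mice were lower, but vehicle replicate 2 set much of the distance: without it the log2 change was -0.15, against -0.31 with all 6 (adjusted p 0.703 by limma). Pycr1, the last enzyme of that pathway, was below the filter at 0.150 to 0.377 TPM, with 3 to 9 reads per library. Bcat2, the mitochondrial branched-chain aminotransferase, was at 48.9, 51.4 and 42.1 TPM in vehicle and at 52.4, 55.2 and 53.8 TPM in treated mice. The treated values were all above the vehicle ones by a small margin, a ratio of means of 1.13 (adjusted p 0.723 by limma). The annotated exons of Bcat2 share 622 bases with the antisense gene 0610005C13Rik.

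The chains of the large neutral amino acid transporter were not higher in treated hearts. Slc3a2, the heavy chain, was at 15.2, 13.5 and 12.6 TPM against 10.3, 13.3 and 14.8 TPM, and the groups overlapped. Slc7a5, the light chain, was at 1.25, 1.29 and 1.04 TPM against 0.844, 1.06 and 0.615 TPM on 14 to 36 reads per library. Paro/Neo replicate 2 was level with the lowest vehicle mouse and the other treated mice were below it (adjusted p 0.737 by limma).

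**Figure D3:**
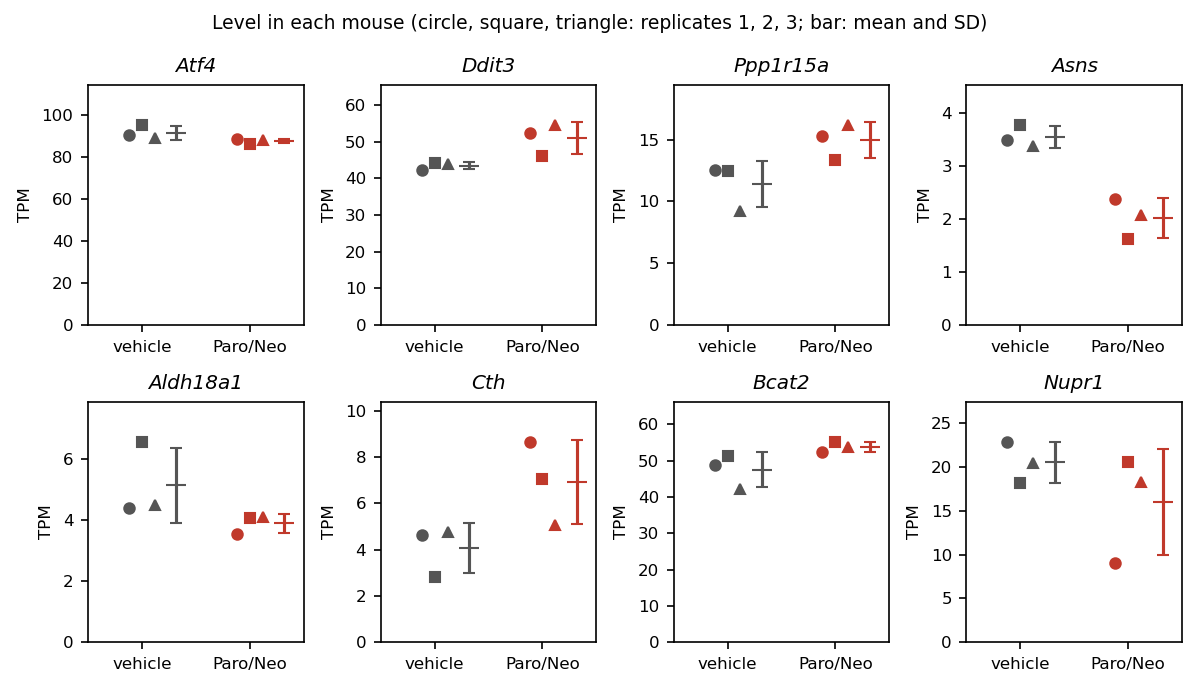
TPM of 8 members in each mouse (vertical axis from 0), with replicates 1, 2 and 3 as circle, square and triangle and the group mean ± SD beside them. The first 7 panels are the members whose groups do not overlap, led by Asns at 3.38 to 3.78 TPM against 1.63 to 2.37 TPM, and Nupr1 shows a difference made by Paro/Neo replicate 1 alone.

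The secreted hormones that mark a mitochondrial stress response were near or at the detection limit. Fgf21 had 1 read in vehicle replicate 1 and 0 in the other 5 libraries. Gdf15 had 3, 8 and 1 reads in vehicle and 5, 5 and 0 in treated mice, or 0.188 to 1.08 TPM and 0 to 0.689 TPM. Counts this low cannot show a fall or a small rise in either. Stc2, a secreted glycoprotein induced by several stresses, was well expressed at 14.2, 12.1 and 12.6 TPM against 13.5, 14.4 and 12.5 TPM. Its values overlapped, with a log2 change of 0.05 ± 0.11 (SE, adjusted p 0.919 by limma).

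Mitochondrial chaperones and proteases included the most abundant members, Hspa9 and Hspd1, and 7 of 8 lay lower and 1 higher after treatment. Their log2 changes had a median of -0.06 and none passed the threshold. The median distance from the vehicle mean was -0.16 in Paro/Neo replicate 1 and -0.05 in both other treated mice, against -0.03 to -0.01 in vehicle mice. Without Paro/Neo replicate 1, 5 were lower and 3 higher. Hspa9, the mitochondrial Hsp70 that pulls in and folds imported proteins, was the highest member at 804, 826 and 861 TPM in vehicle and 681, 870 and 831 TPM in treated mice. Only Paro/Neo replicate 1 left the vehicle range by more than a few percent. Its partner Dnaja3 was at 127 TPM ± 5.52 and 123 TPM ± 2.81 (SD, n = 3 each). The annotated exons of Dnaja3 share 160 bases with Vasn on the same strand, which a strand setting cannot separate.

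Hspd1 and Hspe1 encode the chaperonin HSP60 and its lid HSP10, and they start back to back on chromosome 1, where the window of one Hspd1 start shares 285 bases with that of Hspe1. Their exons overlap by 112 bases on opposite strands. Hspd1 was at 310, 313 and 332 TPM against 292, 357 and 297 TPM. Hspe1 was at 130, 235 and 155 TPM against 235, 152 and 122 TPM. Hspe1 was thus high in 1 mouse of each group, vehicle replicate 2 and Paro/Neo replicate 1, while Hspd1 was not, and the ratio of Hspe1 to Hspd1 was 0.749 and 0.805 in these mice against 0.413 to 0.469 in the other 4. The annotation names 6 pseudogenes after Hspe1 and 5 after Hspd1, with which the counting could have shared reads, so both levels are uncertain.

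Clpp and Clpx encode the peptidase and the unfoldase of the matrix protease ClpXP, and they parted in a single mouse. Clpp was at 83.6, 73.2 and 74.7 TPM against 50.5, 75.6 and 73.9 TPM, and Clpx at 158, 152 and 168 TPM against 191, 160 and 169 TPM. Paro/Neo replicate 1 had the lowest Clpp and the highest Clpx of the 6 mice, a Clpx to Clpp ratio of 3.77 against 1.89 to 2.29 in the rest. Lonp1, the other main matrix protease, was at 57.2 TPM ± 4.93 and 54.3 TPM ± 4.67. Oma1, the inner membrane protease that relays mitochondrial stress to the eIF2alpha kinase HRI, was at 65.0, 47.5 and 53.0 TPM against 35.9, 52.1 and 46.0 TPM. Its log2 change was -0.30 ± 0.17 (SE, adjusted p 0.71 by limma), and it was -0.16 without Paro/Neo replicate 1 and -0.18 without vehicle replicate 1.

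The treated mice did not move together across the list. Paro/Neo replicate 1 was below the vehicle mean for 20 of 31 members, replicate 2 for 16 and replicate 3 for 15. All 3 were above it for 7 members, all 3 below it for 8, and split for 16. Paro/Neo replicate 1 was the lowest of the 6 mice for 14 members (45.2%, against 32.7% of all tested genes) and the highest for 6 (19.4%, against 27.1%). Without it, 16 members lay higher and 15 lower, and their median log2 change was 0.01.

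The values of several libraries moved with base composition, Paro/Neo replicate 1 the farthest. Across the 31 members, its deviation from the mean of the 6 mice had a Spearman coefficient of -0.531 with the GC content of the annotated transcripts, and across all tested genes one of -0.330. Vehicle replicate 2 went the other way, at 0.399 across members and 0.293 across all genes, as did Paro/Neo replicate 3, at 0.367 and 0.161, and the other 3 mice lay between 0.019 and 0.165 across members. The members share 1 library and a median GC content of 53.9%, against 50.6% over all genes, so each coefficient is a description of 1 library. The unfoldase gene Clpx has a GC content of 45.5% and the peptidase gene Clpp one of 58.3%. After a smooth trend on GC content was removed from each library, 9 of 31 members were lowest in Paro/Neo replicate 1, against 28.2% of all genes. In that mouse 12 of 31 were highest, for which the share of all genes was not counted. Nupr1 was at -0.95 and Cth at 0.81 relative to the vehicle mean, and the list had a median log2 change of -0.01. The part of base composition in the uncorrected values of single members was not tested beyond this correction.

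**Figure D4:**
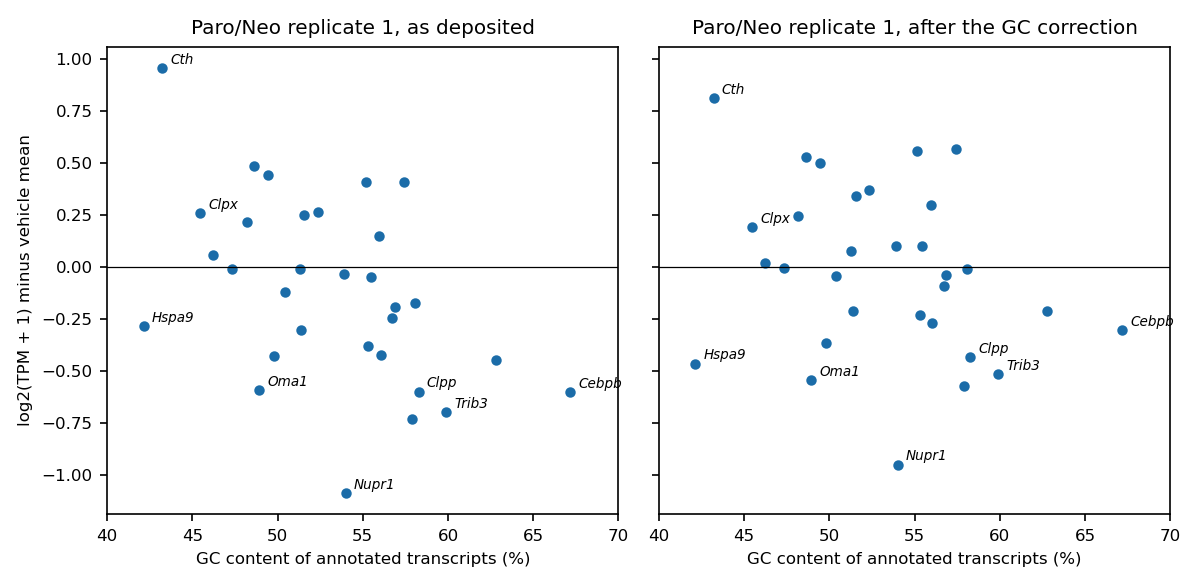
Distance of Paro/Neo replicate 1 from the vehicle mean, as log2(TPM + 1), against the GC content of annotated transcripts in percent, 1 point per tested member, as deposited on the left and after the GC correction on the right. On the left Clpp at 58.3% GC lies at -0.60 and Clpx at 45.5% lies at 0.26, and on the right they lie at -0.44 and 0.19.

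Beyond the list, the machinery that starts the response gave no call. Of 16 tested genes for eIF2alpha kinases, eIF2, eIF2B and their regulators, 8 lay higher and 8 lower (median -0.01, log2). The groups did not overlap for 2 higher genes, Eif2ak2 and Eif2b3, and 1 lower gene, Nck2, against 6.04% and 8.22% of all genes. The eIF2B subunit gene Eif2b3, named after its values were seen, was at 12.6, 12.2 and 12.1 TPM against 13.7, 13.3 and 14.4 TPM. Eif2ak2, which encodes PKR, the kinase activated by double-stranded RNA and itself an interferon-induced gene, was at 21.5, 23.1 and 25.7 TPM in vehicle and at 54.1, 31.7 and 41.7 TPM in treated mice, with Paro/Neo replicate 1 highest. Its log2 change was 0.80 ± 0.18 (SE), with an unadjusted p of 0.00239 and an adjusted p of 0.254 by limma, and it was 0.62 without that mouse. The next smallest p in that list belonged to the adaptor gene Nck2, at 8.31 TPM ± 0.47 and 6.91 TPM ± 0.99.

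Further ATF4-programme genes gave no call either. Of 13 aminoacyl-tRNA synthetase and tRNA export genes 11 lay lower and 2 higher (median -0.03, log2), none past the threshold. That count rests on Paro/Neo replicate 1, which was the lowest mouse for 10 of the 13: without it 7 were lower and 6 higher. Aars, the alanyl-tRNA synthetase, was at 33.3, 31.1 and 27.4 TPM against 16.4, 25.5 and 28.7 TPM, and Mars, the methionyl-tRNA synthetase, at 22.4 TPM ± 0.32 and 19.6 TPM ± 1.98 (adjusted p 0.694 and 0.723 by limma). Of 10 tested amino acid transporters and enzymes 5 lay higher and 5 lower, with the arginine transporter Slc7a1 at 11.4 TPM ± 4.23 and 8.36 TPM ± 2.04 and the urea cycle enzyme Ass1 at 1.99 TPM ± 0.64 and 2.62 TPM ± 0.67 (adjusted p 0.762 and 0.771 by limma).

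Among 16 other stress factors 10 lay higher and 6 lower (median 0.07, log2). None passed the threshold, while 3 had an unadjusted p under 0.05, all of them higher, where 3.24% of all genes stood higher at that level. The same 3 were the list's higher genes without overlap between groups, against 6.04% of all genes. Dnajb9, a chaperone of the endoplasmic reticulum and a target of the XBP1 branch, was at 69.5, 61.9 and 68.8 TPM in vehicle and at 123, 86.2 and 88.2 TPM in treated mice. Every treated mouse was above every vehicle mouse, with a log2 change of 0.55 ± 0.15 (SE, adjusted p 0.393 by limma). Nfe2l1, a regulator of proteasome genes, was at 170 TPM ± 5.52 and 203 TPM ± 20.0, and Ern1, which encodes the sensor IRE1alpha and is named after its values were seen, at 1.33 TPM ± 0.42 and 2.30 TPM ± 0.65. Their adjusted p were 0.608 and 0.618 by limma. Ern1 rested on 25 to 98 reads per library. Xbp1, Herpud1, Hspa5 and Atf6 of the same list, also named after their values were seen, overlapped between groups. In that order their log2 changes were 0.24, 0.22, 0.04 and -0.02.

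In the folate and glycine list outside the members, 8 of 17 tested genes were higher and 9 lower. Gcsh, the lipoate-bearing H protein of the mitochondrial glycine cleavage system, was at 64.9, 67.1 and 69.8 TPM in vehicle and at 114, 120 and 101 TPM in Paro/Neo hearts. Its groups were far apart, with a ratio of means of 1.66 and a log2 change of 0.72 ± 0.10 (SE), and it missed the threshold with an adjusted p of 0.0552 by limma. It was past the threshold under only 4 of the 14 alternatives. These were the stricter filter (adjusted p 0.0475 by limma), array weights (0.0231), the GC correction (0.0475) and voom on inferred reads (0.0445). Of these, voom was added after seeing the data. Of 27 other mitochondrial proteases, chaperones and import genes 12 lay higher and 15 lower (median -0.03, log2). The import channel subunit Timm17a, at 499 TPM ± 27.3 and 427 TPM ± 28.6, and the prohibitin Phb2, at 132 TPM ± 16.0 and 157 TPM ± 24.8, had the smallest p there (adjusted p 0.646 and 0.723 by limma).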

How the data were processed

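Stranded mRNA libraries from the ventricles of 6 mice were analysed from a single table of TPM values that the authors deposited, 1 column per mouse. The build mm10 and STAR 2.5.3a, with Subread, featureCounts, edgeR and FastQC 0.11.5, are named per the submitters' processing notes without their roles. How features were annotated, and whether counting used strand, is not given in the sources used here. Columns were matched to samples by the description and groups by the title. The members and all gene lists were chosen with earlier results of these data known.

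Values were taken as log2(TPM + 1). Genes reaching 1 TPM in 3 or more of the 6 libraries, 12409 in all, were fitted with limma 3.58.1 in R 4.3.3 (lmFit, eBayes with trend), Paro/Neo against vehicle, with Benjamini-Hochberg adjustment over all of them; the fit was tested on simulated data. Lists are described by counts and medians. All members may be named, and of each other list the 2 genes with the smallest p, of which 1 is not reported here. Reads were inferred from the steps of the TPM: 17574 of 17574 features above 0 gave whole reads within 0.001, and the smallest whole numbers that match were used. They served for depth and for 1 alternative, voom. GC content came from GENCODE M21 transcripts, present for 99.3% of tested genes. Alternatives were a pseudocount of 0.1, no filter, a filter at 5 TPM, trimmed mean scaling, array weights, a GC correction, a replicate block and leaving out each mouse; voom was added after seeing the data.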

Additional observations from a re-analysis of the deposited data

How the results depend on the processing

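No member passed the adjusted threshold under any of the 14 alternatives, against 3 members at an unadjusted p under 0.05 in the limma fit reported and 5 with the GC correction. Leaving out 1 mouse gave 1 to 4 such members. The share of all genes at that level was counted only for the fit reported (3.24% higher and 4.37% lower). The counts under the alternatives thus have no background to be read against. Of the 31 members, 20 kept their direction under all alternatives run and 11 did not. The log2 change turned with array weights for Atf5 (0.050), Cebpg (-0.036), Trib3 (0.16), Hspd1 (0.068) and Hspa9 (0.024), with trimmed mean scaling for Psat1 (0.014) and Hspd1 (0.010), and with the GC correction for Psat1 (0.0046) and Hspd1 (0.018). The cause was not tested. Leaving out 1 mouse at a time turned the same 6 and 5 more, with ranges of -0.26 to 0.058 for Atf5, -0.057 to 0.085 for Cebpg, -0.27 to 0.18 for Trib3, -0.10 to 0.068 for Psat1, -0.11 to 0.034 for Hspd1, -0.14 to 0.035 for Hspa9, -0.098 to 0.48 for Chac1, -0.038 to 0.065 for Psph, -0.028 to 0.16 for Shmt2, -0.21 to 0.029 for Slc3a2 and -0.30 to 0.20 for Hspe1. For Asns it ran from -0.80 to -0.50 over its alternatives, with an adjusted p of at least 0.0941 by limma.

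The replicate numbers are those of the sample titles, while the sample descriptions number the treated mice PN2 to PN4. Same-numbered mice by title correlated at -0.053, -0.036 and -0.12 in their deviations from the group means. Paired by the description numbers, vehicle replicate 2 and Paro/Neo replicate 1 gave -0.052, and vehicle replicate 3 and Paro/Neo replicate 2 gave 0.011. Differences between single libraries enter these values, so they cannot show whether same-numbered mice shared a batch. With the replicate block, which used the title numbers, 25 genes of the whole table were higher, against 15 without it, and 0 members were called. Without a filter 5 genes were higher and 1 lower, with the 5 TPM filter 1 was lower and with array weights 4 were lower, against 2. Leaving out 1 mouse gave 4 to 23 higher and 0 to 4 lower genes. Depth limits Phgdh, Pycr1, Fgf21 and Gdf15 most, at 0 to 9 reads per library.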
